A study of Danio rerio with 14 samples.

Results

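The NF-kB and Toll-like receptor response genes described here were 9 genes out of the 21125 tested in zebrafish liver: the adaptor myd88, the NF-kB subunits rela and nfkb2, the inhibitors nfkbiaa, nfkbiab and nfkbie, and the inflammatory mediators il1b, tnfa and cxcl8a. They were chosen by name with earlier results of these data known, so their shares set against all genes are descriptions. All 9 had a probe set annotated with that symbol alone. Where a gene had several probe sets (3 of the 9), the brightest probe set on average stood for it. RNA was measured on 14 whole-transcriptome arrays from livers of fish of 4 genotypes, which were 3 months old at the start and were fed in 3 ways for 8 weeks. WT was the AB strain. The line HBx(p53-) expressed the hepatitis B virus X protein, the line Src(p53-) the kinase Src, and the line HBx,Src(p53-) expressed both, in each case from the hepatocyte promoter fabp10a and on a p53 mutant background. All 3 lines share the p53 mutation and WT lacks it, so transgene and p53 mutation cannot be told apart in comparisons with WT. Normal diet fish (NOR) were given Artemia at 0.5 mL in 1 daily meal. The overfed group (DIO) was given 2 mL in each of 3 daily meals, 12-fold the normal amount. The high fat group (FAT) received the normal Artemia and 0.22 g of high fat food 3 times a day. There were 2 arrays for normal diet WT and for each feeding method of HBx,Src(p53-), which had no FAT array, and 1 array for each of the 8 remaining groups. The labels do not say whether an array held RNA of a single fish or of a pool, but the paper counts 14 fish for the 14 arrays.

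NF-kB is a family of transcription factors that control inflammation and cell survival. Toll-like receptors and the interleukin 1 receptor recognize microbial products or cytokines and signal through the adaptor MyD88 to the IkB kinase complex, which marks IkB proteins for destruction and so frees NF-kB to enter the nucleus. Genes of several IkB proteins, of the p100/p52 subunit nfkb2 and of the enzyme tnfaip3 (A20) are themselves known targets of NF-kB in mammals and form a negative feedback. In liver the pathway is active in Kupffer cells, the resident macrophages, and in hepatocytes, which respond to their cytokines.

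No member passed the threshold of limma's test (adjusted p under 0.05 over all genes) in any of the 18 comparisons made, so the differences below are values and not calls. The share of all genes that passed was 0.0142% for overfeeding in HBx,Src(p53-), 0.00947% each under normal diet for Src(p53-), for HBx,Src(p53-) and for the mean of the mutant lines against WT, and 0% for the other diet comparisons and for HBx(p53-) under normal diet. Over all diets it was 0.0663% for HBx(p53-), 0.0331% for Src(p53-), 0.497% for HBx,Src(p53-) and 0.137% for the mean of the 3 lines, each against WT. Within these limits the arrays showed 3 features. The inhibitor nfkbie, and with smaller differences nfkb2 and nfkbiaa, had their lowest levels on the 2 normal diet WT arrays. For nfkb2 this held by the chosen probe set only. By group mean, the adaptor myd88, the cytokine il1b and nfkbiaa were higher in overfed than in normal diet fish of each genotype. For il1b and nfkbiaa the normal diet arrays of HBx,Src(p53-) spanned the overfed ones, and the other genotypes had 1 overfed array each. Overfed minus normal, nfkbiaa was +2.35 in WT but only +0.11 to +0.30 in the mutant lines. Of all genes, 5.59% likewise had a higher group mean when overfed in each genotype. The cytokine genes tnfa and cxcl8a stayed dim on all arrays.

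The log2 values of all probe sets ran from 0.12 to 14.46, with array medians of 2.1 to 2.23. RNA of all cells in the liver piece was measured together, so fewer cells of a type and less RNA per cell cannot be told apart. The mean of 16 hepatocyte markers was 11.47 to 12.29 over all arrays. The mean of 23 leukocyte markers was 2.93 to 3.46 in WT, 3.21 to 3.63 in HBx(p53-), 3.46 to 3.93 in Src(p53-) and 3.66 to 3.95 in HBx,Src(p53-). Among these, the pan-leukocyte gene ptprc ran from 2.16 to 6.17 and the macrophage gene mpeg1.1 from 3.70 to 6.48, while the lysozyme gene lyz lay between 1.55 and 2.25. For 15 exocrine pancreas markers the WT arrays had means of 4.07 to 5.13 and the HBx(p53-) arrays 5.98 to 8.03. These means were 4.36 to 5.77 in Src(p53-) and 5.72 to 7.01 in HBx,Src(p53-). The sex of the fish is not in the labels.

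**Figure D1:**
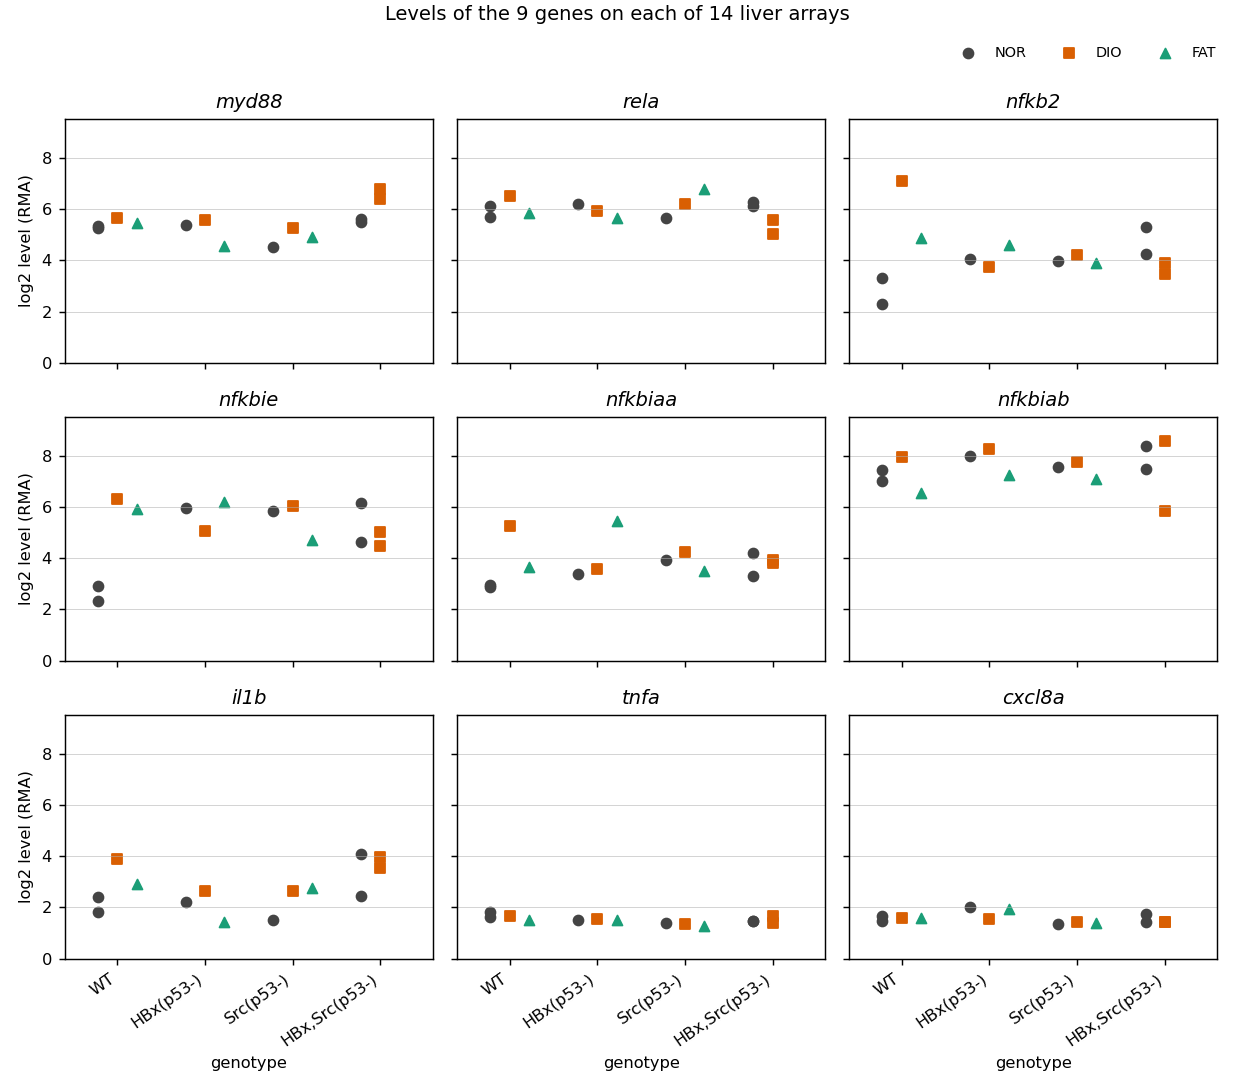
Log2 level of each of the 9 genes (vertical axis) on each of the 14 arrays, by genotype (horizontal axis) and feeding method (circles NOR, squares DIO, triangles FAT), each point being 1 array. The 2 WT_NOR points of nfkbie, at 2.91 and 2.35, lie below its 12 other points, and tnfa and cxcl8a lie between 1.27 and 2.01 throughout.

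The adaptor myd88, which links Toll-like and interleukin 1 receptors to the IRAK kinases, was measured at 5.33 and 5.28 on the WT_NOR arrays, 5.65 on WT_DIO and 5.44 on WT_FAT. In HBx(p53-) it was 5.37 under NOR, 5.57 under DIO and 4.55 under FAT, and in Src(p53-) it was 4.51, 5.26 and 4.89. The line with both transgenes had 5.47 and 5.62 under NOR and 6.38 and 6.77 under DIO. Both overfed arrays of HBx,Src(p53-) were thus above all 12 other arrays, a pattern that 4.24% of all genes also showed.

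Overfed minus normal, myd88 was +0.34 in WT, +0.20 in HBx(p53-), +0.76 in Src(p53-), and +1.03 in the line with both transgenes. The additive model gave +0.66 ± 0.19 (SE), a 1.58-fold difference (limma, adjusted p = 0.739). In HBx,Src(p53-) alone the difference was +1.03 ± 0.34, or 2.04-fold (adjusted p = 0.33). With high fat food the picture was mixed, at +0.13 in WT, -0.82 in HBx(p53-) and +0.38 in Src(p53-). High fat minus overfed was -0.66 ± 0.24 (adjusted p = 0.721), and without the HBx(p53-)_FAT array it was -0.37. Of the 9 members, 1 (myd88) had an unadjusted p under 0.05 for high fat minus overfed, where 6.66% of all genes did, and 0 did for high fat minus normal, where 3.87% did. The mean of the leukocyte markers was 3.67 and 3.66 on the HBx,Src(p53-)_DIO arrays against 3.95 and 3.67 on the NOR arrays of that line. Of the 23 markers 12 were higher and 11 lower on overfeeding in that line, 3 of the lower ones with an unadjusted p under 0.05, against 10.7% of all genes. The leukocyte means of these DIO arrays lay above those of every WT and HBx(p53-) array (2.93 to 3.63). They lay within those of the Src(p53-) arrays (3.46 to 3.93), where myd88 was 4.51 to 5.26. Over the 14 arrays myd88 had Pearson r = 0.10 with the leukocyte mean. The part of leukocytes in the myd88 level was not tested beyond a fit with that mean as a covariate. By the additive model over all genotypes, that fit gave +0.76 ± 0.16 for overfed minus normal. Of 15 exocrine pancreas markers 14 were higher on overfeeding in HBx,Src(p53-), 1 with an unadjusted p under 0.05, against 10.7% of all genes. Their median difference was +0.82, against -0.05 over all genes. The part of this tissue was not tested beyond a fit with its marker mean as a covariate. Over all alternative settings tried, both covariate fits included, the myd88 difference in HBx,Src(p53-) ran from +0.83 to +1.29.

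The interleukin 1 beta gene il1b, a cytokine that signals back through myd88, was 1.84 and 2.40 on WT_NOR, 3.90 on WT_DIO and 2.93 on WT_FAT. It was 2.23, 2.64 and 1.44 in HBx(p53-) and 1.49, 2.65 and 2.75 in Src(p53-), in the order NOR, DIO and FAT. With both transgenes it was 4.07 and 2.45 under NOR and 3.95 and 3.53 under DIO, so the NOR pair spanned the DIO pair. Normal diet arrays were spread widely, and HBx,Src(p53-)_NOR 1 was the highest of all 14. The mean of 14 germ cell markers was 3.57 and 2.23 on the NOR arrays of that line and 3.46 and 2.79 on its DIO arrays. On WT_DIO that mean was 1.91, with il1b at 3.90. The part of germ cells in the il1b level was not tested. On WT_NOR 1, Src(p53-)_NOR and HBx(p53-)_FAT il1b was dim, below the lowest array median of 2.1.

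As for myd88, each genotype had a higher group mean of il1b when overfed, by 1.78 in WT, 0.41 in HBx(p53-), 1.16 in Src(p53-), and 0.48 in the line with both transgenes. In WT and in Src(p53-) a normal diet array below its array's median level entered the difference. The additive model gave +0.93 ± 0.35, a 1.9-fold difference (limma, adjusted p = 0.763). Among the 9 members, 3 (myd88, il1b and nfkbiaa) had a higher group mean in overfed fish of all 4 genotypes, against 5.59% of all genes. A lower mean in all 4 was found for 0 members, against 6.87% of all genes. Of the 9, 2 had an unadjusted p under 0.05 for overfeeding, both higher, where 6.2% of all genes reached it in either direction. The median over the members was +0.62 for overfed minus normal and +0.01 for high fat minus normal, against -0.02 and 0.00 over all genes. Over the 14 arrays myd88 and il1b had Pearson r = 0.72 (Spearman rho = 0.68), and r = 0.67 over the 12 arrays without HBx,Src(p53-)_DIO, a description of arrays that were normalized together.

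Of the NF-kB subunits, rela encodes p65, which carries the transactivation domain of the canonical dimer. Its level was 6.10 and 5.69 on WT_NOR, 6.51 on WT_DIO and 5.83 on WT_FAT, then 6.19, 5.94 and 5.66 in HBx(p53-) and 5.65, 6.21 and 6.79 in Src(p53-). The HBx,Src(p53-) arrays read 6.11 and 6.27 under NOR and 5.03 and 5.57 under DIO. The DIO pair of that line lay below all 12 other arrays, as it did for 3.28% of all genes. The difference was -0.89 ± 0.33 (limma, adjusted p = 0.384) and -0.61 with the mean of all probe sets. A dimmer probe set of rela read 4.48 and 4.37 under NOR and 4.31 and 2.68 under DIO, so HBx,Src(p53-)_DIO 1 was close to the NOR pair. Another did not separate the feeding methods and read 4.66 and 5.93 under NOR and 5.05 and 5.54 under DIO. By the chosen probe sets, the DIO pair lay below the NOR pair for 2 members, nfkb2 and rela, against 24.67% of all genes. In overfed HBx,Src(p53-) fish, then, myd88 was higher and rela lower by the chosen probe sets, and these were the 2 members with an unadjusted p under 0.05 there, where 10.7% of all genes reached it.

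The second subunit gene, nfkb2, encodes the precursor p100, which is processed to p52 in the non-canonical pathway and also acts as an inhibitor. It was 2.30 and 3.33 on the WT_NOR arrays, 7.08 on WT_DIO and 4.86 on WT_FAT. In HBx(p53-) it was 4.05, 3.72 and 4.58, and in Src(p53-) 3.98, 4.20 and 3.88, for NOR, DIO and FAT. The HBx,Src(p53-) values were 4.25 and 5.29 under NOR and 3.90 and 3.47 under DIO. The WT arrays held both ends of its range, with WT_NOR 1 the lowest and WT_DIO the highest of all 14, while the other lines stayed between 3.47 and 5.29. A dimmer probe set of nfkb2 read 4.58 on WT_DIO and 2.53 to 3.12 on the 13 other arrays, so it also set WT_DIO apart but not the WT_NOR arrays.

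Among the inhibitors, nfkbie encodes IkB epsilon, which holds NF-kB dimers in the cytoplasm. It was 2.91 and 2.35 on the WT_NOR arrays, against 6.30 on WT_DIO and 5.90 on WT_FAT. In HBx(p53-) it was 5.94, 5.05 and 6.21, and in Src(p53-) 5.82, 6.04 and 4.71, in the order NOR, DIO and FAT. Fish with both transgenes had 4.65 and 6.14 under NOR and 4.49 and 5.02 under DIO. The 2 normal diet WT arrays stood apart. Among the remaining 12 arrays, which ran from 4.49 to 6.30, the order of groups lay within a range not much wider than that of the HBx,Src(p53-)_NOR pair.

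The IkB alpha gene nfkbiaa, whose product is the fast inhibitor resynthesized after NF-kB activation, was 2.94 and 2.89 on WT_NOR, 5.26 on WT_DIO and 3.64 on WT_FAT. It was 3.40, 3.58 and 5.45 in HBx(p53-) and 3.93, 4.23 and 3.51 in Src(p53-), for NOR, DIO and FAT. The HBx,Src(p53-) arrays gave 3.30 and 4.21 under NOR and 3.81 and 3.92 under DIO. The high values came from single arrays of different lines and feeding methods, WT_DIO and HBx(p53-)_FAT, with all others at or below 4.23. Its paralog nfkbiab was 7.44 and 7.02 on WT_NOR, 7.94 on WT_DIO and 6.54 on WT_FAT. Over all arrays nfkbiab ran from 5.83 on HBx,Src(p53-)_DIO 1 to 8.57 on HBx,Src(p53-)_DIO 2, so the replicates of 1 group held both ends of its range. High fat minus normal, nfkbiab was -0.69 in WT, -0.73 in HBx(p53-) and -0.47 in Src(p53-), or -0.80 ± 0.52 by the additive model (limma, adjusted p = 1). With high fat food 2 members, tnfa and nfkbiab, were lower in all 3 genotypes, against 10.76% of all genes. Higher in all 3 were 0 members, against 12.89% of all genes.

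For 3 of the 9 members (nfkbie, nfkbiaa and nfkb2) both WT_NOR arrays were below all 12 other arrays, and 1.6% of all genes showed this pattern, which was noticed in the data. The pattern rests on those 2 arrays. For nfkb2 it held by the chosen probe set only, with 3.33 on WT_NOR 2 and 3.47 on HBx,Src(p53-)_DIO 2. The 3 genes varied together over the 14 arrays, with r = 0.73 (rho = 0.82) for nfkbie and nfkbiaa, r = 0.70 (rho = 0.81) for nfkbie and nfkb2 and r = 0.73 (rho = 0.63) for nfkbiaa and nfkb2. Over the 12 arrays without WT_NOR the same values of r were 0.63, 0.61 and 0.63. Over the 13 arrays without WT_DIO, an extreme array for nfkb2, they were 0.72, 0.78 and 0.58. No value was computed without WT_NOR and WT_DIO together. In contrast nfkbie had r = 0.19 with nfkbiab and r = 0.20 with rela.

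**Figure D2:**
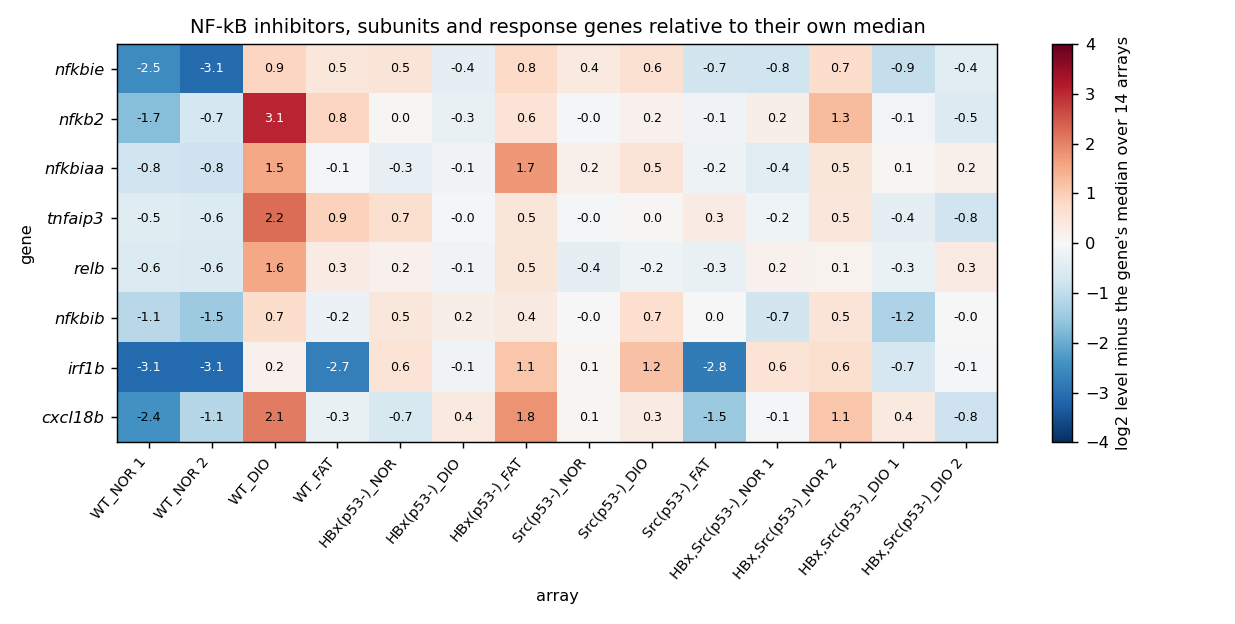
Log2 level minus the gene's own median over the 14 arrays (color and printed value) for nfkbie, nfkb2, nfkbiaa and 5 other genes of the pathway (rows) on each array (columns). The WT_NOR columns are below the median for all 8 genes, and WT_DIO is above it for all 8, but the 5 other genes were picked for this pattern after their values were seen. In WT on the obesity diet 17 of 35 response genes, 8 of 16 Toll-like receptors and 18 of 22 adaptors and kinases were higher.

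Whether an obesity diet altered these genes was asked within each genotype, with the DIO and FAT arrays pooled as in the study. In WT, nfkbie was +3.47 ± 0.61 (SE), nfkb2 was +3.16 ± 0.69 (8.92-fold), nfkbiaa was +1.54 ± 0.66 (2.91-fold) and il1b was +1.29 ± 0.58 (2.45-fold). Each had an adjusted p of 0.999 by limma. The first 3 had an unadjusted p under 0.05, against 4.34% of all genes, and nfkbie had a larger absolute moderated t than 99.99% of the genes. Of the 9 members 8 were higher, with a median of +0.27 against +0.02 over all genes. Without WT_DIO the difference of nfkbiaa was +0.73 and that of nfkb2 +2.05, without WT_FAT they were +2.35 and +4.26, and with the mean of all probe sets nfkb2 was +2.04. For nfkbie the values without WT_DIO or WT_FAT were +3.27 and +3.68.

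**Figure D3:**
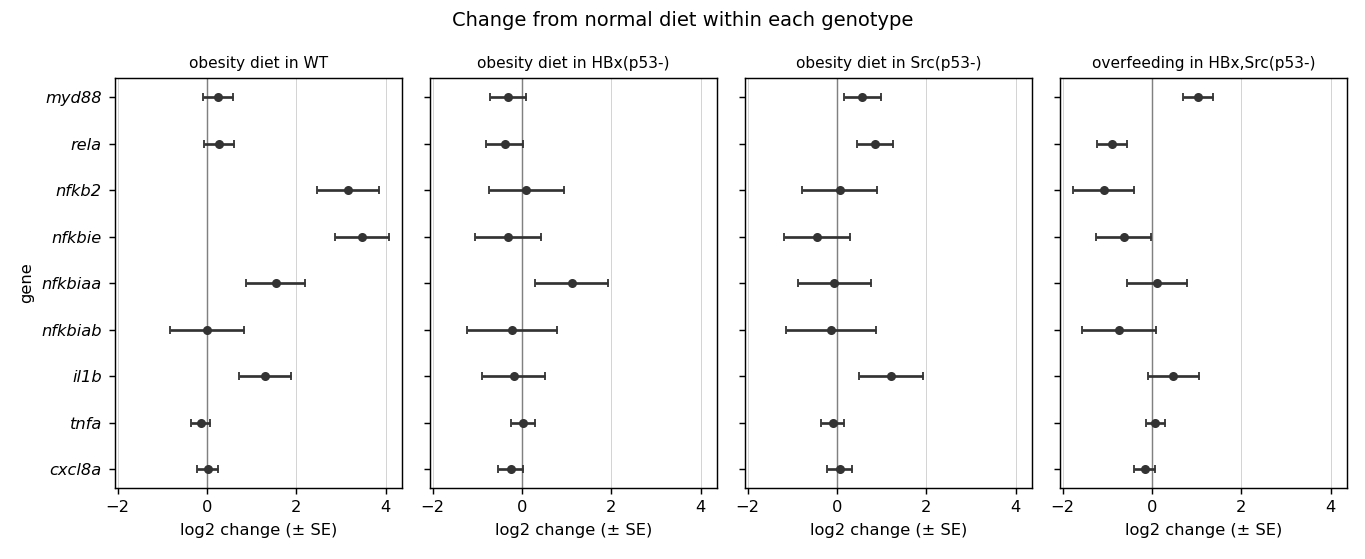
Log2 difference between obesity diet and normal diet (horizontal axis, point with SE from limma) of the 9 genes (vertical axis) in each genotype, a panel per genotype. In WT, nfkbie and nfkb2 lie at +3.47 and +3.16, while in the 3 mutant lines both lie between -1.08 and +0.10.

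In the other genotypes nfkbie and nfkb2 had diet differences near or below 0, while the pooled nfkbiaa value in HBx(p53-) was near that in WT. This HBx(p53-) value came mostly from the FAT array, at +2.05 against +0.18 for DIO. In WT nfkbiaa was +0.73 for FAT and +2.35 for DIO. The HBx(p53-)_FAT array had a pancreas marker mean of 8.03, against 6.93 under NOR and 5.98 under DIO. Its leukocyte mean was 3.63, against 3.22 and 3.21. The part of these cell types in the nfkbiaa value was not tested. In HBx(p53-) nfkbie was -0.32 ± 0.74, nfkb2 +0.10 ± 0.84 and nfkbiaa +1.12 ± 0.81, and in Src(p53-) they were -0.45 ± 0.74, +0.06 ± 0.84 and -0.06 ± 0.81. Where the diet was overfeeding alone, in HBx,Src(p53-), they were -0.64 ± 0.61, -1.08 ± 0.69 and +0.11 ± 0.66. No member of the 9 had an unadjusted p under 0.05 in HBx(p53-), against 3.74% of all genes, nor in Src(p53-), against 5.06%. The members' medians were -0.22 in HBx(p53-), +0.06 in Src(p53-), and -0.16 with both transgenes, against +0.01, +0.02 and -0.05 over all genes. The subunit rela was +0.85 ± 0.41 and il1b +1.21 ± 0.71 in Src(p53-). For the mean of the 4 genotypes il1b was +0.70 ± 0.32, nfkbiaa +0.68 ± 0.37 and myd88 +0.38 ± 0.19, and 0 members had an unadjusted p under 0.05, against 4.34% of all genes.

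The difference between diet responses was fitted directly. The contrast of the mutant lines with WT was added after seeing the data. The low WT_NOR levels of nfkbie and nfkb2 enter it, so its p-values for them are descriptions. The mean diet difference of the 3 mutant lines minus that of WT was -3.94 ± 0.73 for nfkbie and -3.46 ± 0.83 for nfkb2 (limma, adjusted p = 0.942 for both). For nfkbiaa it was -1.15 ± 0.80 (adjusted p = 0.942). The first 2 had an unadjusted p under 0.05, as did 5.05% of all genes. For the Src-carrying lines minus WT and HBx(p53-), the difference was -2.12 ± 0.68 for nfkbie (adjusted p = 0.532) and -2.14 ± 0.77 for nfkb2 (adjusted p = 0.547), where 7.73% of all genes reached an unadjusted p under 0.05. With the mean of all probe sets the values for nfkb2 were -2.19 and -1.35. Against WT, the nfkb2 value was -2.36 without WT_DIO and -4.57 without WT_FAT. These contrasts and the WT comparison share the WT_NOR arrays and are not independent of each other.

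Under normal diet, the lines were compared with the same WT_NOR arrays, in comparisons also added after seeing the data. The low WT_NOR levels of nfkbie and nfkb2 enter each of them, so the p-values of these genes are again descriptions. The level of nfkbie was +3.32 ± 0.74 in HBx(p53-), +3.19 ± 0.74 in Src(p53-), and +2.76 ± 0.61 with both transgenes, or 9.96-, 9.15- and 6.79-fold (limma, adjusted p = 0.343, 0.515 and 0.23). With both transgenes it was +3.51 without HBx,Src(p53-)_NOR 1 and +2.02 without HBx,Src(p53-)_NOR 2. It was the 1 member with an unadjusted p under 0.05 in HBx(p53-), against 6.05% of all genes, and in Src(p53-), against 5.74%. The gene nfkb2 reached it too in HBx,Src(p53-), at +1.95 ± 0.69, against 8.48% of all genes. For the mean of the 3 lines minus WT, nfkbie was +3.09 ± 0.54 (adjusted p = 0.222) and nfkb2 +1.45 ± 0.61 (adjusted p = 0.743), where 6.53% of all genes had an unadjusted p under 0.05. Without WT_NOR 1 the value of nfkb2 was +0.94, and with the mean of all probe sets it was +0.77.

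Other cell types differed between these groups as well. The leukocyte marker mean was 2.96 and 3.12 on WT_NOR, 3.22 on HBx(p53-)_NOR, 3.59 on Src(p53-)_NOR and 3.95 and 3.67 on HBx,Src(p53-)_NOR. Of the 23 leukocyte markers 18 were higher in the mean of the 3 lines under normal diet, 5 with an unadjusted p under 0.05. All 15 pancreas markers were higher, 7 of them with an unadjusted p under 0.05, which 6.53% of all genes reached in either direction. With the leukocyte mean as a covariate nfkbie was +2.56 ± 0.72 and nfkb2 +0.44 ± 0.70 for that comparison, and nfkb2 was +0.40 and nfkbie +1.94 in HBx,Src(p53-) alone. With the pancreas mean as a covariate nfkbie was +2.36 ± 0.62, and it was +1.91 in HBx(p53-) alone and +1.91 in HBx,Src(p53-) alone. In WT on the obesity diet, nfkbie was +3.31 with the leukocyte covariate. On WT_FAT the leukocyte mean was 2.93, below both WT_NOR arrays, and nfkbie was 5.90. On WT_DIO, which had the highest nfkbie and nfkb2 levels, the leukocyte mean was 3.46, above both WT_NOR arrays, and the hepatocyte mean was 11.47, the lowest of all 14. In WT on the obesity diet 17 of 23 leukocyte markers were higher. The myeloid transcription factor spi1b, at +1.23 ± 0.41, was the 1 marker with an unadjusted p under 0.05, against 4.34% of all genes. Under normal diet spi1b was +1.91 ± 0.36 for the mean of the 3 lines minus WT. The part of these cell types in the differences was not tested beyond these fits.

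**Figure D4:**
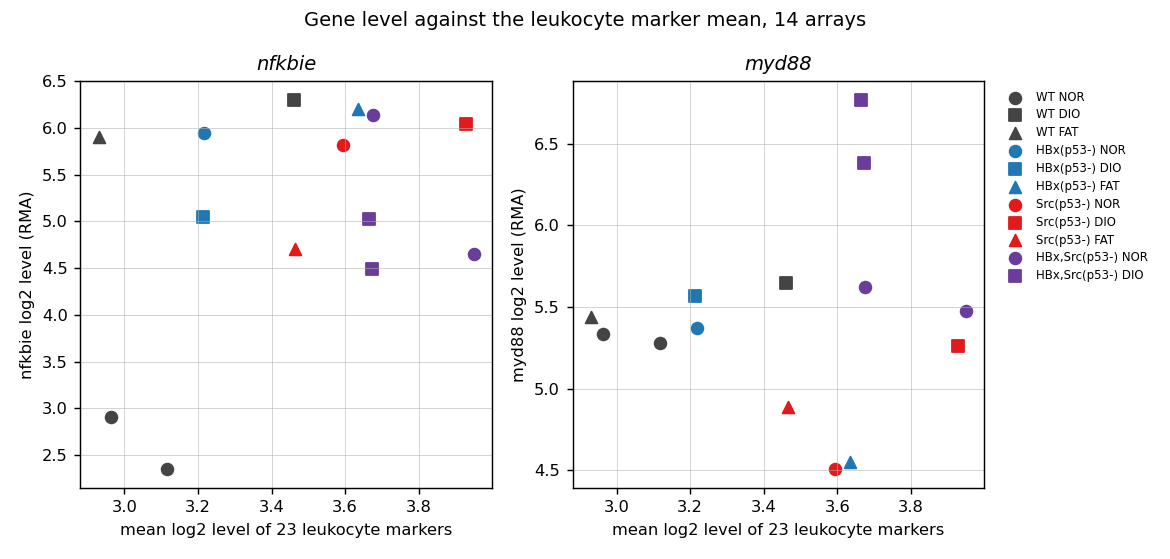
Log2 level of nfkbie (left) and myd88 (right) against the mean log2 level of 23 leukocyte markers on each of the 14 arrays, colored by genotype, with symbols for the feeding method. The WT_FAT array has nfkbie at 5.90 with a leukocyte mean of 2.93, while the WT_NOR arrays have 2.91 and 2.35 with leukocyte means of 2.96 and 3.12.

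The additive model over all diets takes each genotype difference as equal under every feeding method. For nfkbie, WT was below HBx(p53-) under NOR but above it under DIO (6.30 against 5.05). With feeding method in this model, nfkbie was +1.25 ± 0.87 in HBx(p53-) against WT, +1.04 ± 0.87 in Src(p53-), and +0.76 ± 0.83 with both transgenes. The adaptor myd88 was -0.32 ± 0.24, -0.59 ± 0.24 and +0.47 ± 0.23 in the same lines (limma, adjusted p = 0.927, 0.883 and 0.455). In Src(p53-) this was the 1 member with an unadjusted p under 0.05, against 5.39% of all genes, and with the leukocyte covariate it was -0.07. No member reached an unadjusted p under 0.05 in HBx(p53-), against 5.85% of all genes, in HBx,Src(p53-), against 12%, or in the mean of the 3 lines, against 7.45%. For the mean of the 3 lines the members' median was -0.05 against +0.01 over all genes.

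The remaining cytokines were dim. The tumor necrosis factor gene tnfa, an activator of NF-kB, lay between 1.27 on Src(p53-)_FAT and 1.83 on WT_NOR 1, with a median of 1.49, and the neutrophil chemokine cxcl8a lay between 1.34 on Src(p53-)_NOR and 2.01 on HBx(p53-)_NOR, with a median of 1.52. All these values were below the array medians. Their differences were -0.14 ± 0.22 and +0.01 ± 0.23 in WT on the obesity diet, and over all 18 comparisons no value of either exceeded 0.43 in size. The neutrophil marker mpx ran from 1.77 to 4.97 with a median of 1.97, and the second probe set of cxcl8a lay between 1.32 and 1.86.

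The other genes of the pathway were taken from lists of receptors, adaptors and kinases, cytokine receptors, further subunits and inhibitors, and response genes, of which 92 were measured. These lists too were chosen with earlier results of these data known, so their shares are descriptions. None of the 92 genes passed limma's threshold in any of the 18 comparisons. In WT on the obesity diet 9 of 11 further subunits and inhibitors were higher, with a median of +0.54 against +0.02 over all genes. Of the 11, 3 had an unadjusted p under 0.05, against 4.34% of all genes. These were the ubiquitin-editing enzyme tnfaip3 (+2.09 ± 0.42), the subunit relb (+1.51 ± 0.40) and the inhibitor nfkbib (+1.53 ± 0.53). Their levels on WT_NOR, WT_DIO and WT_FAT were 3.97, 3.90, 6.67 and 5.38 for tnfaip3, 4.92, 4.88, 7.03 and 5.79 for relb, and 8.19, 7.83, 10.01 and 9.06 for nfkbib. For relb the WT_NOR arrays were the lowest of all 14, as for the transcription factor irf1b, and 2 of the 92 genes (2.17%) showed this, against 1.6% of all genes.

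The WT_DIO array had the highest level of all 14 for 17 of the 92 pathway genes (18.5%) and for 2 of the 9 members, nfkbie and nfkb2, against 5.64% of all genes. The same array had the lowest hepatocyte mean of all 14 (11.47) and the highest leukocyte mean of the WT arrays (3.46, against 2.93 to 3.12), and the part of these cell types was not tested. Besides tnfaip3, relb and nfkbib the 17 included the chemokine cxcl18b, at 8.09 against 3.58 and 4.86 on WT_NOR, the flagellin receptor tlr5a, the TNF receptor tnfrsf1a and the kinases irak4 and tbk1. Of 22 adaptors and kinases 18 were higher in WT on the obesity diet, with a median of +0.23 against +0.02 over all genes. Among these 22, 0 had an unadjusted p under 0.05, against 4.34% of all genes. Of 16 Toll-like receptors 8 were higher in WT on the obesity diet, with a median of 0.00. The receptor tlr5a was +1.72 ± 0.98 and its paralog tlr5b +1.09 ± 0.45, and tlr5a differed widely between the WT_NOR arrays, at 5.58 and 3.21. In HBx(p53-) tlr5a was -0.42 ± 1.21, in Src(p53-) -0.95 ± 1.21, and with both transgenes +0.55 ± 0.98.

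For overfed minus normal 24 of 35 response genes were higher, with a median of +0.06 against -0.02 over all genes. Of the 35, 4 had an unadjusted p under 0.05, all of them higher, and 6.2% of all genes reached it in either direction. The chemokine ccl34b.1 was +0.83 ± 0.19, the adaptor traf1 +0.52 ± 0.20 and the suppressor of cytokine signaling socs3b +0.99 ± 0.40. Within HBx,Src(p53-) ccl34b.1 was +1.33 ± 0.35, and the overfed arrays of that line were the highest of all 14 for it, for the chemokine cxcl20 and for the fish-specific receptor tlr18, which made 3 of the 92 pathway genes (3.26%) against 4.24% of all genes. Of 22 adaptors and kinases 13 were higher on overfeeding, with a median of +0.03.

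Genes whose levels followed the members most closely over the 14 arrays were found by Pearson r among all tested genes, which makes high values likely by selection. They were desi1b (r = 0.95) and dus4l (r = 0.92) for myd88, fbxo44.3 (r = 0.88) and tgif2 (r = 0.87) for il1b, and the lysosomal protease gene ctsd and the autophagy gene wipi2 (both r = 0.90) for nfkbie. For nfkb2 they were tnfaip3 (r = 0.88) and adcy3b (r = 0.87), for nfkbiaa syt1b and cxcl18b (both r = 0.86), and for rela eif4g3b (r = 0.89) and ttyh2 (r = 0.87). The nearest genes were etv1 (r = 0.86) and si:dkey-23o4.6 (r = 0.82) for tnfa, rgs6 (r = 0.88) and rhoga (r = 0.86) for cxcl8a, and SLC12A2 (r = 0.82) and ccl33.2 (r = 0.79) for nfkbiab. Thus tnfaip3 and cxcl18b, which are on the pathway lists, were among the closest genes of nfkb2 and nfkbiaa.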

How the data were processed

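Liver RNA was hybridised to ZebGene ST arrays, and the authors deposited log2 levels per probe set, which per the submitters' processing notes came from RMA and oligo. RMA subtracts background, brings the arrays to the same distribution and summarises the probes of a set. Tool versions and batches are not given in the sources used here. Each array was taken as 1 liver RNA sample of 1 fish, going by the paper's count of fish. The variation between such samples may in part be technical. Of 75212 probe sets, the annotation gave 30358 a single symbol, 1015 several symbols (not used) and 43839 none. Symbols of 19501 of the 21125 genes were matched by Entrez identifier to RefSeq (GRCz12tu). No low-value filter was applied. Promoter, protein and probe sequences were not used here.

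Differences within genotypes, between diet responses and on normal food were taken from a limma model of 8 cell means (genotype by normal or obesity diet, 6 residual degrees of freedom). Genotype and feeding method differences over all arrays came from an additive model (8 residual degrees of freedom). Groups with 1 array were taken to vary as the rest do. In the model of 8 cell means, the residual spread includes differences between DIO and FAT within WT, HBx(p53-) and Src(p53-). In the additive model it includes differences in diet response between genotypes. Standard errors and p-values therefore do not measure variation between samples alone. P-values were Benjamini-Hochberg adjusted over all genes, errors with ± are standard errors, and scripts were tested on simulated data (R 4.3.3, limma 3.58.1). All 9 members were named, with the 2 most alike genes of each, and up to 3 genes per pathway list with an unadjusted p under 0.05 and the largest moderated t, plus tlr5a and tlr5b, which the study names. Genes named for extreme arrays were chosen after their values were seen. Members and lists were chosen with earlier results of these data known, and 5 of the 18 comparisons (those under normal diet, and mutant lines minus WT in diet response) were added after seeing the data. The number of arrays limits the precision. Germ cell markers, the other list of cell types, averaged 2.23 to 3.57 on the HBx,Src(p53-) arrays and 1.83 to 2.45 on the others. Of these 14 markers 11 were higher in HBx,Src(p53-) than in WT over all diets, and 1 passed limma's threshold, against 0.497% of all genes.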

Additional observations from a re-analysis of the deposited data

Results flagged for a closer look

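Among the 18 sets of 4 arrays of 1 genotype (the 9 members in WT and in HBx,Src(p53-)), 1 held an array far from the others: cxcl8a was 1.74 on HBx,Src(p53-)_NOR 2, while the line's other arrays lay between 1.41 and 1.44. Chance gives about 1 in 20 such cases, and the probe set was dim on every array.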

How the results depend on the processing

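In all 18 comparisons 0 of the 9 members were called by limma, and this count was 0 under each of the 23 alternatives that could be fitted (14 arrays left out in turn, and 9 other settings). At an unadjusted p under 0.05 there were 19 member differences, and each kept its direction under every alternative that could be fitted. Not all of them kept an unadjusted p under 0.05 by limma. The highest was 0.83 for myd88 in Src(p53-) against WT and 0.68 for nfkb2 in HBx,Src(p53-) under normal diet. For il1b on overfeeding it was 0.098, while others, such as nfkbie and nfkb2 in WT on the obesity diet, stayed under 0.05. Leaving out the lone normal diet array of HBx(p53-) or of Src(p53-) left some contrasts without a value. The setting limited to genes above the median level did not include il1b, tnfa and cxcl8a. Over the alternatives, nfkbie in WT ran from +3.19 to +3.75 (adjusted p = 0.358 to 1), nfkb2 in WT from +2.04 to +4.26 (adjusted p = 0.172 to 1), myd88 for overfeeding from +0.55 to +0.81 (adjusted p = 0.413 to 0.985) and il1b for overfeeding from +0.70 to +1.22 (adjusted p = 0.499 to 0.985). The sample numbers gave no pairing, with correlations of deviations of -0.03, -0.23 and 0.13 between the 3 numbered groups, and with the numbers as a replicate block 0 members were called and myd88 in overfed HBx,Src(p53-) was +1.03 (adjusted p = 0.353). The tnfa and cxcl8a probe sets lay below every array median, and groups of 1 array limit the precision.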
